A study of Mus musculus with 24 samples.

Results

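Serine and glycine metabolism was followed through 9 genes in mouse astrocytes that had been collected by fluorescence-activated sorting from 4 brain regions: olfactory bulb, hippocampus, cortex and thalamus. The genes were taken by name, for their known roles in this metabolism: Phgdh, Psat1, Psph, Shmt1, Shmt2, Gldc, Srr, Slc1a4 and Slc6a9, all 9 of which are among the 24394 genes of the table. They were chosen with earlier results of these data known. The mice carried a conditional knockout of Nfix, a transcription factor of the nuclear factor I family (labelled KO), or were controls (labelled WT). Each genotype had 3 libraries per region, 24 in all. The sources used here give no driver of the recombination, deleted exons, strain, age, sex or batch, and do not say whether libraries came from separate animals, so that p-values measure only the spread between libraries, which may be technical. Nfix itself had a median of 5561 normalized reads (3009 to 11701) in the 12 libraries labelled KO and 3478 (2360 to 5117) in the 12 labelled WT, and a value per gene cannot show whether exons were lost, so the genotypes below are those of the labels. The series title names thalamocortical circuits, GABA and purinergic signalling, and the comparisons ask how astrocytes of the 4 regions differ between genotypes.

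Astrocytes are the main cells of the adult brain that make L-serine from glucose. Phgdh branches off glycolysis at 3-phosphoglycerate, Psat1 adds the amino group and Psph removes the phosphate. Shmt1 in the cytosol and Shmt2 in mitochondria turn serine into glycine and load a carbon unit onto folate, and Gldc is the decarboxylase of the mitochondrial glycine cleavage system. Srr makes D-serine, a co-agonist of NMDA receptors, Slc1a4 (ASCT1) exchanges serine and other neutral amino acids across the membrane, and Slc6a9 (GlyT1) takes up glycine.

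In the test over the 4 regions on all 24 libraries Gldc and Slc6a9 were the members that passed. Gldc was low in the thalamus and Slc6a9 low in the cortex. The Slc6a9 call was the less firm and was lost in many alternatives. Psat1 passed only without 2 libraries that are described below. No member passed the test between KO and WT in any region. Because the knocked-out factor belongs to a family that binds the palindrome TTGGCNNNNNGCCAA and the shorter TTGGC, the promoters of Gldc and Slc6a9 are shown. Each is the 250 bases before an annotated start, 5′ to 3′ along the gene, from RefSeq on GRCm38.p6, with TTGGC on either strand in capitals. Gldc has 1 entry at chr19:30175442-30175691 on the minus strand. Slc6a9 has 3 on the plus strand, at chr4:117835008-117835257 (start 1), chr4:117849100-117849349 (start 2) and chr4:117855297-117855546 (start 3).
Gldc: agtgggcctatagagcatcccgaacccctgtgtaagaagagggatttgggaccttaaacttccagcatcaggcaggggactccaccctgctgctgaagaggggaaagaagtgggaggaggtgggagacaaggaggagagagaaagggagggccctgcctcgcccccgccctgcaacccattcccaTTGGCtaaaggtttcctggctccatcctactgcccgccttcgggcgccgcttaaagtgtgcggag
Slc6a9 start 1: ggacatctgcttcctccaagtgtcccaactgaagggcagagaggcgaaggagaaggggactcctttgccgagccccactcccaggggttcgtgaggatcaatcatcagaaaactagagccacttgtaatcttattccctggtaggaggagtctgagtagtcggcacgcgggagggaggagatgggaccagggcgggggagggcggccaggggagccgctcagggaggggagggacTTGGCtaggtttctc
Slc6a9 start 2: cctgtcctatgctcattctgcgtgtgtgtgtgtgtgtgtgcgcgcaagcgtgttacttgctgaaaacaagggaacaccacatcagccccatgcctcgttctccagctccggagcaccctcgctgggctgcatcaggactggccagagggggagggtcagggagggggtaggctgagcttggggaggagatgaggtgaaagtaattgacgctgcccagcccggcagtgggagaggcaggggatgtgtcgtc
Slc6a9 start 3: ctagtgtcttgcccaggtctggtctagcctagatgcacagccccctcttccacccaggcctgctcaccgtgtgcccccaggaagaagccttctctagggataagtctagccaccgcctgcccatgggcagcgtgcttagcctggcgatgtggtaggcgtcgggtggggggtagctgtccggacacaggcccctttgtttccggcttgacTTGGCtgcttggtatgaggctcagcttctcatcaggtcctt

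In the Gldc promoter TTGGC begins 65 bases before the start. In Slc6a9 it begins 15 bases before start 1 and 41 bases before start 3, and start 2 has none in this window. In windows of 300 bases (250 before to 50 after the start), 8 of the 12 promoter entries of the 9 members held TTGGC, as did 46.7% of all 32851 promoters. The full palindrome was in 0 of the 12 entries and in 0.0365% of all promoters. TGATGNAA, a form of the element bound by ATF4, a factor that raises serine synthesis genes under amino acid shortage, was in 1 entry, that of Slc1a4, against 3.97% of all promoters. These are matches of letters on both strands and not binding sites.

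Levels are given as normalized reads, that is, read counts scaled by a size factor for each library. Total depth was 4803663 to 25616591 reads in 22 libraries. Thalamus WT 1 had 10788329 and thalamus KO 3 had 2517487 if the smallest value above 0 in each is 1 read, which could not be checked. No molecular identifiers are described, so the floors cover counting error only. A floor of 3 reads equalled 1.18 to 3.90 normalized reads in 22 libraries, with thalamus WT 1 at 2.98 on the same reading. It was 11.3 in cortex WT 3 and, on that reading too, 29.7 in thalamus KO 3. Those 2 libraries stood apart from the rest. Cortex WT 3 detected 3871 genes and thalamus KO 3 detected 2220, against 7509 to 11984 in the other libraries, and 5 of 9 members were listed at 0 in cortex WT 3 and all 9 in thalamus KO 3. The summed level of 10 astrocyte markers was 9304 CPM (reads scaled to the same total in each library) in thalamus KO 3 and 17999 in cortex WT 3, while that of 10 oligodendrocyte markers was 76162 and 51082. Markers of choroid plexus or ependyma summed to at most 107 CPM in the olfactory bulb and 1503 in the cortex, but reached 55555 in hippocampus KO 2, 94308 in thalamus WT 2 and 35070 in thalamus KO 1. Marker sums of neurons were at most 1791 CPM in any library. In bulk RNA, fewer cells of a type and less RNA per cell cannot be told apart. Tests of members that rest on these 2 libraries are also given without them.

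Per kilobase of merged exon, the serine synthesis enzymes Psat1 and Phgdh were the most abundant members. The median over the 24 libraries was 1011 normalized reads per kilobase for Psat1 and 504 for Phgdh. Slc1a4 followed with 236, Gldc with 223, Slc6a9 with 104 and Srr with 59.7, all per kilobase. Psph, which ends the same pathway, had a median of 22.3 per kilobase and Shmt2 16.7. Shmt1 was above 0 in 5 of 24 libraries, with a highest value of 102 normalized reads in thalamus KO 1.

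**Figure D1:**
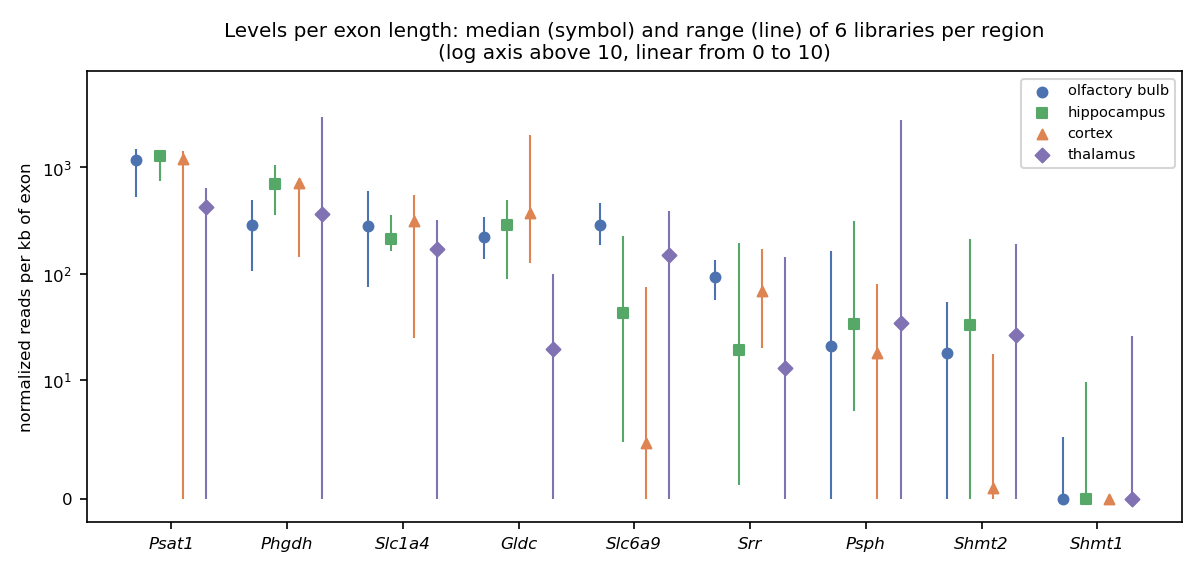
Levels of the 9 members per kilobase of merged exon (vertical axis, logarithmic above 10 and linear below) in the 4 regions. Symbols are medians and lines ranges of 6 libraries, KO and WT together. Psat1 has the highest median (1011 over all libraries), and the Gldc symbol for the thalamus (19.8) lies well below those of the other regions (223 to 376).

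Gldc showed the clearest difference between regions. In the olfactory bulb it had 2018, 1351 and 833 normalized reads in KO libraries, against 1322, 1364 and 2076 in WT libraries. In the hippocampus the KO libraries had 1936, 1082 and 3041 and the WT libraries 543, 1565 and 2541 normalized reads. In the cortex the KO libraries had 5477, 772 and 1899 and the WT libraries 2515, 2061 and 12205, the last of these in cortex WT 3. In the thalamus the KO libraries had 230, 356 and 0 normalized reads and the WT libraries 602, 0 and 11.1. Thus 5 of the 6 thalamic libraries lay below all 18 libraries of the other regions, and the sixth, thalamus WT 1, lay above only hippocampus WT 1. KO and WT overlapped in each region.

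The F test over regions with both genotypes (limma-trend on log2(value + 10), all 24 libraries) gave an adjusted p of 0.0036 for Gldc, with 5.35 log2 units between the highest region, the cortex, and the lowest, the thalamus. At an adjusted p under 0.05 this test called 1.4% of 12477 genes, and 2 of the 9 members. On the log2 scale the difference from the thalamus was 4.37 for the olfactory bulb (SE 1.07, 95% interval 2.23 to 6.52), 4.49 for the hippocampus (SE 1.07, 2.34 to 6.63) and 5.35 for the cortex (SE 1.07, 3.21 to 7.50). Without cortex WT 3 and thalamus KO 3 the differences were 3.56, 3.67 and 4.13, each with an SE of 0.70 to 0.78, and the adjusted p was 0.00045. Between the olfactory bulb, hippocampus and cortex the intervals of the Gldc differences included 0. The largest of these differences in size, the olfactory bulb minus the cortex, was -0.98 (SE 1.07, -3.12 to 1.16). Within the 12 WT libraries alone, where 0.252% of 11105 genes passed and 0 of the 8 members tested, Gldc had an adjusted p of 0.0506. It passed in 7 of 23 alternatives, where the adjusted p ranged from 0.0024 to 0.323. Among them it was 0.0030 without cortex WT 3, 0.0058 without thalamus WT 1, 0.0382 without cortex WT 1 and 0.0481 at a pseudocount of 1. DESeq2 on the reads, which does not hold thalamus WT 1, called Gldc there (adjusted p = 0.0111) and edgeR did not (0.0529). Within the 12 KO libraries alone, added after seeing the data, its adjusted p was 0.654, and 0.389 without thalamus KO 3. The summed astrocyte markers had medians of 44794 CPM in the olfactory bulb, 82385 in hippocampus, 86072 in cortex and 41690 in the thalamus. Endothelial markers had medians of 31.5, 169, 73.6 and 134 CPM in the same region order, highest in the hippocampus. Neuroblast markers had 54.6, 40.7, 24.3 and 25.9 CPM, highest in the olfactory bulb. Several other marker lists had their highest median in the thalamus. In the same region order the medians were 3773, 3256, 4975 and 10741 CPM for 10 oligodendrocyte markers, 117, 124, 168 and 703 for 5 markers of their precursors, 26.3, 7797, 158 and 9346 for 5 choroid or ependymal markers and 59.0, 55.3, 37.6 and 338 for 5 fibroblast markers. They were 191, 373, 488 and 650 CPM for 8 microglia markers. For 10 neuron markers they were 230, 74.1, 215 and 318 CPM, and for 5 mural markers 194, 54.8, 116 and 195. Within the thalamus the choroid or ependymal sum was 35070, 11398 and 144 CPM in KO libraries, whose Gldc was 230, 356 and 0, against 211, 94308 and 7295 CPM in WT libraries, whose Gldc was 602, 0 and 11.1. The part of these cells in the Gldc result was not tested.

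Slc6a9 had another regional order. In the olfactory bulb it had 1263, 1124 and 2394 normalized reads in KO libraries, against 1726, 2358 and 972 in WT libraries. In the hippocampus the values were 289, 1162 and 151 in KO libraries, against 644, 72.2 and 24.7 in WT libraries. In the cortex they were 138, 0 and 0 in KO libraries, against 387, 48.6 and 0 in WT libraries. In the thalamus they were 2000, 814 and 0 in KO libraries, against 423, 742 and 1910 in WT libraries. All 6 olfactory bulb libraries lay above all 6 cortical ones, and thalamic libraries other than thalamus KO 3 were above each cortical library too. KO and WT again overlapped in each region. The F test over regions gave an adjusted p of 0.041 and a span of 5.32 log2 units. The olfactory bulb exceeded the cortex by 5.32 (SE 1.22, 95% interval 2.88 to 7.76) and exceeded the hippocampus by 2.84 (SE 1.22, 0.40 to 5.27), and the cortex minus the thalamus was -3.59 (SE 1.22, -6.03 to -1.15). The olfactory bulb and the thalamus did not differ beyond their spread, with a difference of 1.73 (SE 1.22, -0.70 to 4.17). This call was less firm than that of Gldc: it was lost in edgeR (adjusted p = 0.0954) and DESeq2 (0.0682), and when any 1 of 15 libraries was left out. Over the 24 fits with 1 library left out the adjusted p ranged from 0.0035 to 0.132. Without cortex WT 3 and thalamus KO 3 it was 0.0023, and the olfactory bulb exceeded the cortex by 4.67 (SE 0.95), the hippocampus by 2.84 (SE 0.90) and the thalamus by 0.57 (SE 0.95, -1.34 to 2.47), while the cortex minus the thalamus was -4.10 (SE 1.00). Within the 12 WT libraries alone Slc6a9 did not pass between regions. It passed there in 0 of 23 alternatives, where the adjusted p of the tests over regions ranged from 0.188 to 0.963. The summed level of 6 markers of olfactory ensheathing glia had medians of 6100 CPM for olfactory bulb, 864 for hippocampus, 1061 for cortex and 1727 for thalamus. All 6 markers were above 0 in each olfactory bulb library, whose sums were 4576 to 8960 CPM, and sums elsewhere were 485 to 3041. The part of these cells in the Slc6a9 result was not tested. Exons of Slc6a9 overlap those of Ccdc24 over 1429 bases, of Gm17114 over 511 and of B4galt2 over 46, all on the other strand. Gm17114 has no values in these data. Ccdc24 was at 0 in all 12 libraries of the olfactory bulb and cortex, and B4galt2 had medians of 211 normalized reads in the olfactory bulb and 29.9 in the cortex.

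**Figure D2:**
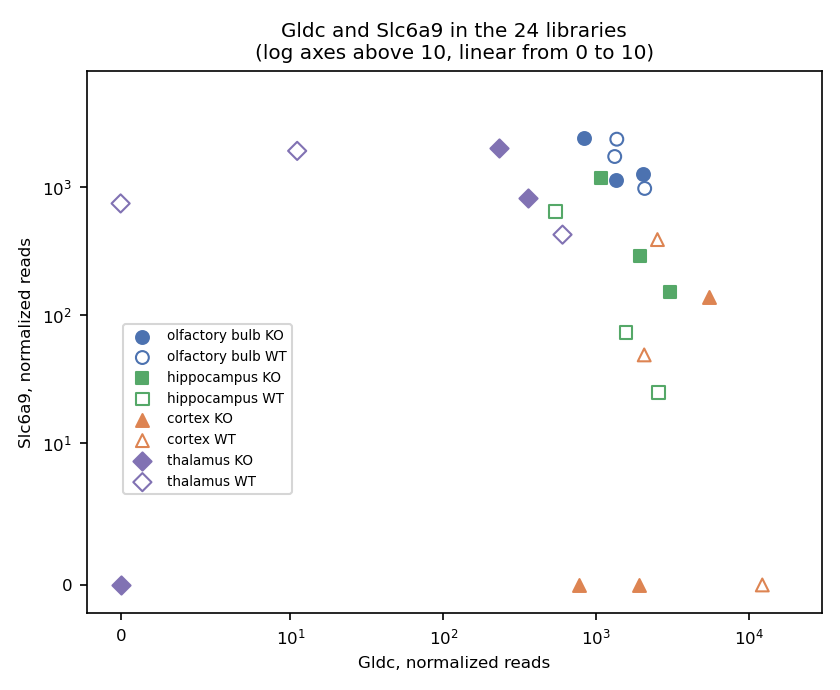
Gldc (horizontal axis) against Slc6a9 (vertical axis) in normalized reads in each of the 24 libraries, on axes that are logarithmic above 10 and linear below. Filled symbols are KO and open symbols WT libraries. Olfactory bulb libraries (circles) are high in both genes, cortical ones (triangles) lie at 772 or more of Gldc and at most 387 of Slc6a9, and thalamic ones (diamonds) at 602 or less of Gldc.

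Psat1, the most abundant of the serine synthesis enzymes, had 2260, 6347 and 4561 normalized reads in KO and 4039, 5536 and 5630 in WT libraries of the olfactory bulb. In the hippocampus it had 5789, 3472 and 5313 in KO and 5559, 5511 and 3169 in WT libraries. In the cortex it had 5964, 5449 and 6104 in KO libraries, against 4868, 3032 and 0 in WT libraries. In the thalamus it had 1977, 1641 and 0 in KO libraries, against 2189, 933 and 2741 in WT libraries. The thalamic median, 1809, was the lowest of the 4 regions, where the others were 5048 to 5412, and 16 of the 18 other libraries lay above all thalamic ones. The difference between regions did not pass in all 24 libraries (adjusted p = 0.490 in limma). It passed without cortex WT 3 and thalamus KO 3 (adjusted p = 0.0402), where the cortex exceeded the thalamus by 1.40 log2 units (SE 0.40, 95% interval 0.60 to 2.20). The hippocampus exceeded it by 1.38 (SE 0.38, 0.62 to 2.14) and the olfactory bulb by 1.32 (SE 0.38, 0.57 to 2.08). edgeR and DESeq2, which hold cortex WT 3 but not thalamus WT 1 or thalamus KO 3, gave adjusted p-values of 0.742 and 0.763 for Psat1.

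Phgdh had medians of 710 normalized reads in the olfactory bulb, 1729 in hippocampus, 1772 in cortex and 901 in the thalamus. The test over regions did not pass in all 24 libraries (adjusted p = 0.816 in limma). Without cortex WT 3 and thalamus KO 3 the olfactory bulb minus the hippocampus was -1.33 log2 units (SE 0.56, interval -2.45 to -0.21). The olfactory bulb minus the cortex was then -1.38 (SE 0.59, -2.57 to -0.19). Intervals of the other region pairs included 0. The Phgdh test over regions passed in 0 of 36 alternatives, where the lowest adjusted p was 0.422. Thalamus WT 1 had 7446 normalized reads of Phgdh, where the next highest of the 24 libraries had 2604. The same library had 12122 of Psph, where the next highest had 1366. Its astrocyte marker sum, 47407 CPM, was the highest of the thalamic libraries (9304 to 43144 in the other 5) and within the range of the olfactory bulb (36636 to 49072), and its Psat1, 2189, was not high. Phgdh has a named pseudogene, and exons of Psph overlap those of Cct6a over 452 bases on the other strand, so reads of these genes may be shared. Cct6a had 0 to 1037 normalized reads in the thalamic libraries. The source of the high Phgdh and Psph values in thalamus WT 1 was not tested. Other Psph values ran from 0 to 1366 and Shmt2 values from 0 to 663 normalized reads, with 3 and 6 libraries at 0.

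For Srr and Slc1a4 no difference between regions passed. Srr medians were 423 normalized reads for olfactory bulb, 88.5 for hippocampus, 318 for cortex and 59.4 in the thalamus (adjusted p = 0.614 in limma). The largest Srr difference, the olfactory bulb minus the thalamus, was 2.40 log2 units (95% interval 0.0061 to 4.80), and 1.90 (-0.38 to 4.18) without cortex WT 3 and thalamus KO 3. Slc1a4 medians were 1101, 833, 1245 and 673 in the same order (adjusted p = 0.827). Psph, Shmt1, Shmt2, Srr and Slc1a4 did not pass between regions under any of the alternatives tried. Exons of Srr overlap those of Tsr1 over 1240 bases and of Smg6 over 126 on the other strand.

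**Figure D3:**
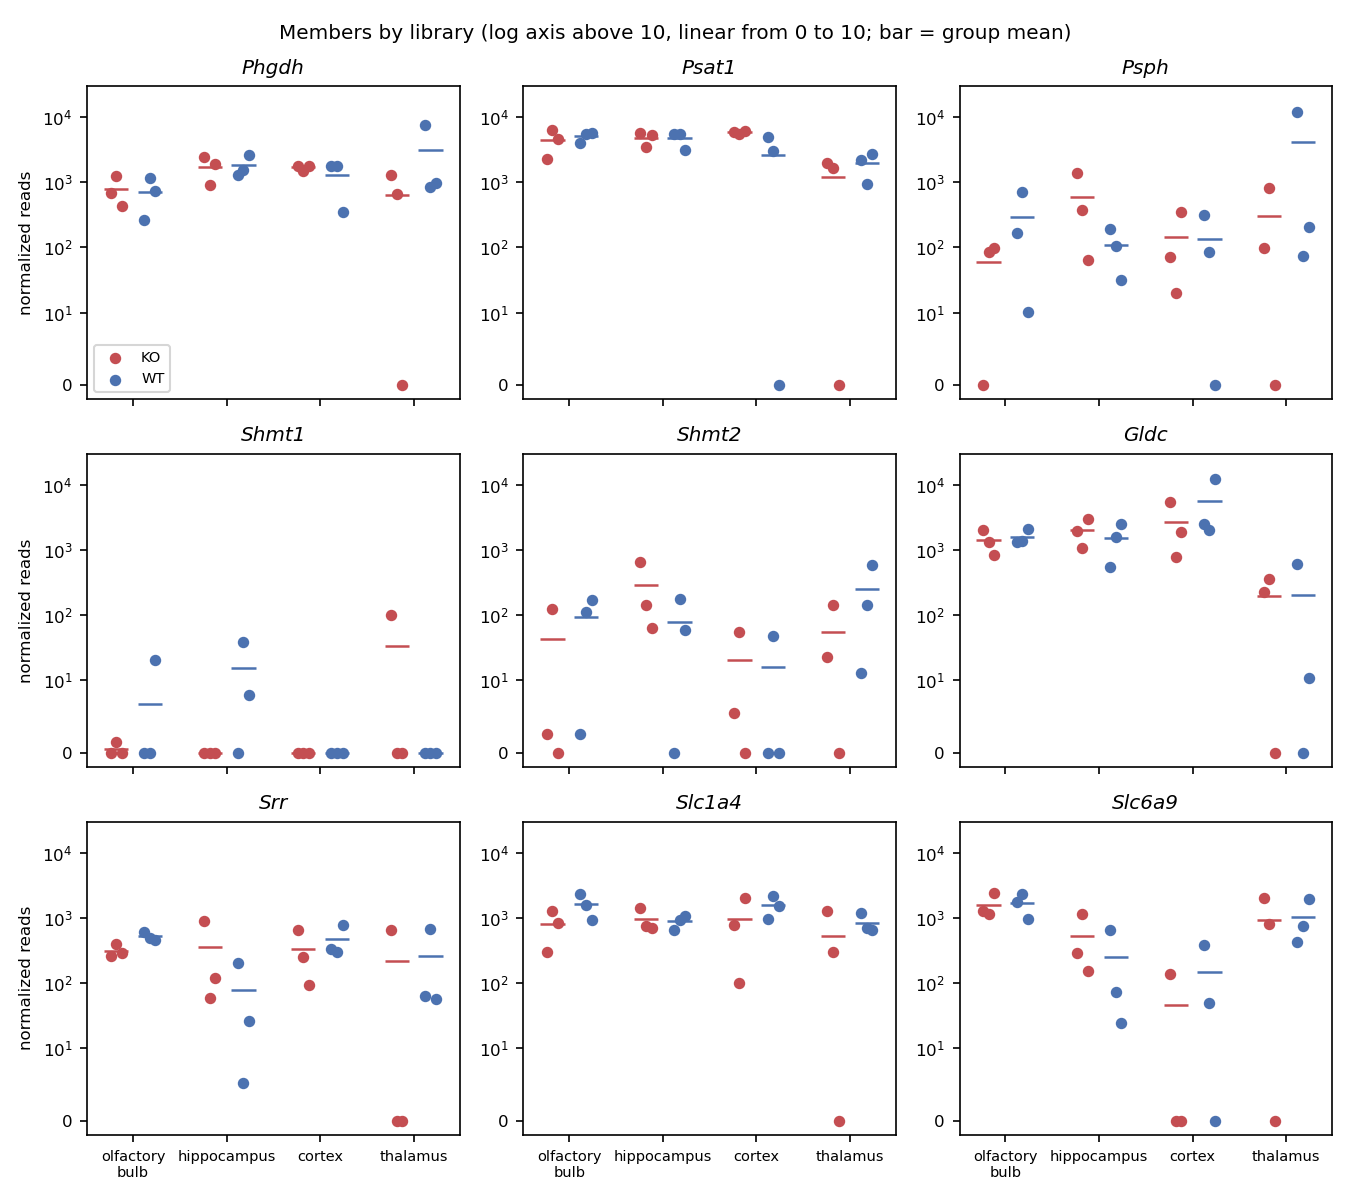
Normalized reads (vertical axis, logarithmic above 10 and linear below) of the 9 members in each library of the 4 regions, KO (red) left of WT (blue). Points are libraries and bars group means (n = 3). KO and WT points overlap in nearly every region; Psat1 in the cortex and Srr in the olfactory bulb are the pairs that do not.

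Between genotypes no member passed in the olfactory bulb, hippocampus, cortex or thalamus. Genes entered a comparison if 3 or more of its libraries reached a value of 10, which 8, 8, 7 and 8 of the 9 members met in these regions. Of all genes, 0%, 0.0109%, 0% and 0% passed in the same order by limma. edgeR and DESeq2 called 0 members as well, beside 0, 0, 6 and 0 of all genes in edgeR and 60, 119, 23 and 36 in DESeq2. At an unadjusted p under 0.05 limma had 1 member, Psat1 in the cortex (0.315 in edgeR, 0.505 in DESeq2), edgeR 0, and DESeq2 1, Gldc in the thalamus (0.0226, with no adjusted p given). Of all genes limma had 376 of 9385, 578 of 9213, 204 of 8376 and 293 of 7675 such p-values in the same order. Of 9385, 9213, 8376 and 6535 genes, edgeR had 292, 448, 169 and 144, and DESeq2 580, 827, 301 and 503. KO and WT libraries did not overlap for 1 of 8 members in the olfactory bulb, 0 of 8 in hippocampus, 1 of 7 in cortex and 0 of 8 in the thalamus, while 9.06%, 12.1%, 7.61% and 11.2% of all genes tested in those regions did not overlap.

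Srr was the member of the olfactory bulb. It had 259, 394 and 285 normalized reads in KO libraries, against 611, 496 and 452 in WT libraries, so that all 3 KO values lay below all 3 WT values. The difference was -0.73 log2 units (SE 1.18, adjusted p = 1.00 in limma). The smallest two-sided p that an exact permutation of 3 against 3 libraries can give is 0.1. In the hippocampus Srr had 898, 59.0 and 118 in KO libraries, against 200, 5.13 and 26.0 in WT libraries, a difference of 2.04 (SE 1.70).

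Psat1 was the member of the cortex, with the KO values given above all higher than the WT values. The difference was 3.46 log2 units (SE 1.26, unadjusted p = 0.0059, adjusted p = 0.996 in limma). It rests on cortex WT 3, where Psat1 was at 0, and without that library it was 0.60 (SE 0.50, unadjusted p = 0.231). The means were 5839 ± 345 normalized reads in KO and 2633 ± 2458 in WT libraries (SD, n = 3 each). The median difference over all genes tested in the cortex was 0.49.

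In the thalamus 7 of 8 members tested lay below 0, Gldc being above, as did 5747 of all 7675 genes tested. The median was -2.13 log2 units over these members, beside -1.31 over all genes tested there. Thalamus KO 3, at 0 for all members, enters these values. Without it the differences ran from -1.03 for Psph to 2.55 for Gldc, and all genes had a median of -0.18. In the hippocampus 4132 of all 9213 genes lay above 0. Of the members 7 of 8 lay above 0 (Psat1 and Slc1a4 below it under upper-quartile factors), with a median of 1.08, beside -0.16 over all genes. The largest of the member differences, Srr, Shmt2 at 1.97 (SE 1.69), Psph at 1.78 (SE 1.48) and Slc6a9 at 1.64 (SE 1.42), each had a standard error above 1. In the olfactory bulb 7 of 8 members lay below 0, with a median of -0.52, beside -0.04 over all genes, of which 4845 of 9385 lay below 0.

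Averaged over the 4 regions, Slc1a4, the serine exchanger, showed the largest genotype difference of the members in limma. It had 297, 1264 and 838 normalized reads in KO libraries of the olfactory bulb, against 2349, 1586 and 938 in WT libraries. In the hippocampus it had 1392, 750 and 709 in KO, against 649, 917 and 1081 in WT libraries. In the cortex it had 787, 98.2 and 2025 in KO, against 966, 2175 and 1524 in WT libraries. In the thalamus it had 1254, 301 and 0 in KO, against 1173, 691 and 656 in WT libraries. KO and WT overlapped in each region, and the KO mean on the log2 scale was lower in 3 of the 4. The average difference was -1.21 log2 units (SE 0.75, adjusted p = 0.971 in limma, where 0% of 12477 genes passed). The exact two-sided permutation test, with genotypes exchanged within regions, gave an unadjusted p of 0.0480, the smallest among the 9 members, whose other p-values ran from 0.512 to 0.941. This test was run on the members only. Without thalamus KO 3 the difference was -0.72 (exact permutation p = 0.10), and without cortex WT 3 as well it was -0.71 (exact permutation p = 0.157). Leaving out any 1 library, the exact p ranged from 0.0073 to 0.121. edgeR and DESeq2, which do not hold thalamus KO 3 or thalamus WT 1, gave -0.29 and -0.36. In these tools the average was largest for Gldc, at 1.35 (adjusted p = 0.429) in edgeR and 1.23 (adjusted p = 0.141) in DESeq2, against 0.05 in limma. Its thalamic difference was 5.69 in edgeR and 5.77 in DESeq2, on 2 KO libraries (230 and 356 normalized reads) and 2 WT libraries (0 and 11.1), against 0.92 in limma. The other 8 averages in limma ran from -0.59 for Phgdh to 0.18 for Psat1. In the F test of whether the genotype difference varied between regions, no member passed in limma (0% of 12477 genes did), and the smallest unadjusted p of a member was 0.0594, for Psat1. Psat1 was at 0 in cortex WT 3 and thalamus KO 3. Without these 2 libraries its difference was 0.60 log2 units in the cortex and 0.020 in the thalamus.

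**Figure D4:**
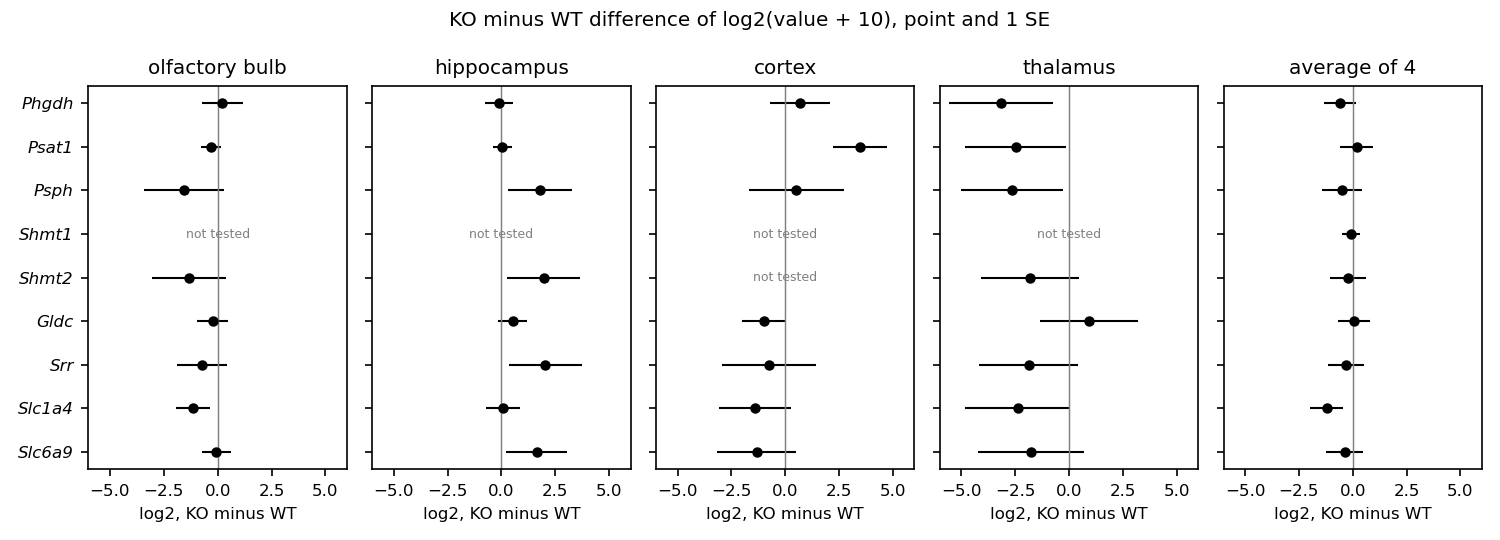
Difference between KO and WT in log2(value + 10) (horizontal axis) for the 9 members in each region and as the average of the 4. Points are estimates and lines 1 standard error; members that did not reach the filter on low values are marked as not tested. The cortical Psat1 estimate (3.46) stands off 0 and rests on cortex WT 3, and most thalamic estimates lie left of 0 with standard errors above 2.

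Of 87 other genes of serine, glycine, folate and methionine metabolism, their transporters and receptors, and targets of ATF4, none passed in any comparison by limma on all libraries. Of the 54 tested in the olfactory bulb 1 had an unadjusted p under 0.05, as had 2 of 52 for hippocampus, 2 of 47 for cortex, 0 of 42 in the thalamus and 2 of 70 in the average. Over all genes these shares were 4.01%, 6.27%, 2.44%, 3.82% and 4.86%. In the olfactory bulb the smallest p-values belonged to Mtrr (log2 difference 3.67, SE 1.84), Slc38a3 (0.97, SE 0.51), Slc38a1, Sptlc2 and Gclc. In the hippocampus they belonged to the mitochondrial folate carrier Slc25a32 (3.73, SE 1.61), the amino acid transporter subunit Slc3a2 (3.03, SE 1.37), Pgk1, Atf4 and Aldoc. In the cortex they were Aldh1l1 (3.61, SE 1.70) and the cystine transporter Slc7a11 (2.93, SE 1.35), then Ddit3, Slc38a3 and Slc7a5. Leaving out cortex WT 3, the difference was 1.30 (SE 0.69) for Aldh1l1 and -0.19 (SE 0.47) for Slc7a11. In the thalamus they were Vldlr (-4.37, SE 2.34), Ptdss2, the serine transporter Slc7a10 (-3.83, SE 2.38), Slc7a11 and Ddo. Without thalamus KO 3 it was -3.56 (SE 2.10) for Vldlr and -2.45 (SE 1.61) for Slc7a10. In the average they were methionine synthase Mtr (1.65, SE 0.77), Grin2b, Sptlc2 and Mthfd2, and for the difference between regions Slc3a2, Ddit3, Slc19a1, Ptdss2 and Vldlr. Of the glycine cleavage list, 6 of 9 genes were tested between regions with both genotypes and 1, Gldc, passed. Between regions the other list genes with the smallest p-values were the folate receptor Folr1 (span 3.76, adjusted p = 0.126), Aldh1l2 (3.40, 0.260), Slc38a1, Grin1 and Slc1a5. Folr1 (4.53, 0.0370) and the glutamine transporter Slc38a1 (4.96, 0.0463) passed without cortex WT 3 and thalamus KO 3. Folr1 is also a marker of the choroid plexus, whose marker sum reached 55555 CPM in the hippocampus and 94308 in the thalamus. Within WT libraries they were Slc38a1, Grin1, Aldh1l1, Slc1a5 and Grin3a.

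Over the 24 libraries, the pattern most like that of Gldc among 7035 genes above 0 in at least 18 libraries was that of Lhx2, a LIM homeobox gene (Spearman rho 0.80), then Specc1 (0.78) and Fam171b (0.76). For Slc6a9 the closest were Rpe (0.83), the GABA transporter Slc6a11 (0.78) and Shisa9 (0.77). For Phgdh they were Gpc6 (0.87), Akt2 (0.78) and Acsl6 (0.76), and for Psat1 Gem (0.84), Mob1a and Mcl1 (both 0.77). For Psph they were Wdr82, Ctsz and Zfp706, for Shmt2 Ric8, Eif3h and Snapc5, for Srr Cep63, Dnajc18 and Mir684-2, and for Slc1a4 Tmx4, Maneal and Sirt2, all at 0.69 to 0.77. Without cortex WT 3 and thalamus KO 3 the first of these was 0.74 for Gldc, 0.78 for Slc6a9, 0.84 for Phgdh and 0.80 for Psat1. Among the serine synthesis enzymes rho was 0.43 between Phgdh and Psat1, 0.30 between Phgdh and Psph and 0.20 between Psat1 and Psph over the 24 libraries, and 0.27, 0.11 and -0.037 without those 2. Between Gldc and Slc6a9 it was -0.35, and -0.45 without them. Between Phgdh and Slc6a9 it was -0.36, and -0.72 without them. These values share libraries, regions and the depth of each library and are descriptions.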

How the data were processed

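RNA of sorted astrocytes was sequenced in 24 libraries. The tools in the submitters' processing notes are STAR 2.5.0a, DESeq2 1.20.0, R 3.5.2, FastQC 0.10.1 and MultiQC 0.9, with build mm10. No counter, annotation or strand setting is given in the sources used here, and reads of overlapping genes cannot be told apart. The deposited values are a signal that the authors made by dividing reads by a factor for each library, as is seen in the values: 100% of the values were whole multiples of 1 step within 0.001. Whole reads were recovered in 22 columns. For thalamus WT 1 and thalamus KO 3 the step could not be checked, and both stayed out of the count tests. Of 24421 entries, 27 named as dates were left out.

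Values were tested with limma-trend (limma 3.58.1, R 4.3.3; robust) on log2(value + 10). A gene was tested if 3 or more libraries of a comparison reached 10, with Benjamini-Hochberg adjustment over all genes and a threshold of 0.05. Fold changes on this scale understate those of low genes. edgeR 4.0.16 (quasi-likelihood) and DESeq2 1.42.0 on recovered reads were alternatives; edgeR called 0, 0, 6 and 0 genes between KO and WT in the olfactory bulb, hippocampus, cortex and thalamus. Other alternatives were pseudocounts of 1 and 100, no filter, TMM and upper-quartile factors, a replicate block and left-out libraries. The functions were tested on simulated data. Exon lengths and overlaps came from GENCODE on GRCm38, and promoters from RefSeq. Named were the members, list genes that passed or had the 5 smallest p-values in a comparison, and the 3 genes most like each member; 1 list gene is not reported here. The members and lists were chosen with earlier results of these data known.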

Additional observations from a re-analysis of the deposited data

How the results depend on the processing

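Gldc kept its call between regions in every alternative with both genotypes and without any 1 library. In the KO libraries only, an alternative added after seeing the data, its span was 4.40 log2 units, and 2.77 without thalamus KO 3, and neither passed. Slc6a9 lost its call at a pseudocount of 1 (span 7.03), with no filter (5.32), in edgeR (4.23), in DESeq2 (4.34), with hippocampus WT 2 and 3 averaged (5.32) and in the KO libraries only (5.95), and its span was 4.67 to 5.99 with 1 library left out. It lost the call without any 1 olfactory bulb library, hippocampus KO 1, KO 3, WT 2 or WT 3, cortex KO 2, KO 3, WT 2 or WT 3, or thalamus WT 3. The 2 averaged libraries correlated at 0.90, against 0.29 to 0.75 for other pairs of replicates. The cause of these losses was not tested.

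No member passed between KO and WT in any alternative, but estimates changed sign, the largest thalamic ones among them. With upper-quartile factors the hippocampal differences were -0.089 for Psat1 and -0.067 for Slc1a4, and with hippocampus WT 2 and 3 averaged -0.050 for Psat1. Without cortex WT 3 and thalamus KO 3 they were -0.067 for Phgdh and -0.87 for Psph in the cortex, 0.020 for Psat1 and 0.59 for Slc6a9 in the thalamus, and 0.059 for Shmt1 and 0.033 for Srr in the average. In edgeR, which leaves out thalamus KO 3 and thalamus WT 1, the thalamic differences were 0.16 for Phgdh, 0.0020 for Psat1, 1.69 for Psph, 0.28 for Slc1a4 and 0.12 for Slc6a9, and the averages 0.17 for Phgdh, 0.49 for Psph and 0.34 for Srr. In DESeq2, on the same libraries, they were 0.17, 0.028, 1.77, 0.26 and 0.13, and 0.14, 0.51 and 0.21. At a pseudocount of 100 the averages were 0.016 for Shmt1 and -0.094 for Gldc.

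With 1 library left out, the difference in the olfactory bulb was -0.37 to 0.66 for Phgdh, -0.64 to 0.10 for Psat1, -0.55 to 0.088 for Gldc and -0.42 to 0.21 for Slc6a9. In the hippocampus it was -0.41 to 0.30 for Phgdh, -0.22 to 0.27 for Psat1, -0.10 to 1.00 for Gldc and -0.24 to 0.24 for Slc1a4. In the cortex it was -0.067 to 1.09 for Phgdh and -0.87 to 1.64 for Psph, and in the thalamus -3.80 to 0.020 for Psat1, -0.25 to 2.72 for Gldc and -3.24 to 0.59 for Slc6a9. In the average it was -0.54 to 0.80 for Psat1, -0.87 to 0.059 for Psph, -0.22 to 0.059 for Shmt1, -0.53 to 0.058 for Shmt2, -0.24 to 0.50 for Gldc and -0.75 to 0.21 for Slc6a9.

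Over all genes, DESeq2 called 60 for olfactory bulb, 119 for hippocampus, 23 for cortex, 36 for thalamus, 1006 for the average, 7 in the difference between regions, 178 between regions in WT libraries and 410 between regions with both genotypes. edgeR called 0 for hippocampus, 6 for cortex, 1 for the difference between regions, 71 and 530 between regions. In the hippocampus a pseudocount of 1 and no filter gave 0, a pseudocount of 100 gave 3, upper-quartile factors 2 and the replicate block 3, and with no filter 9 passed in the difference between regions. Without cortex WT 3 and thalamus KO 3, 1 passed in that difference, 140 between WT regions and 356 between regions with both genotypes. Averaging hippocampus WT 2 and 3 gave 18 between WT regions, and 116 also without cortex WT 3. The KO libraries only gave 6, and 71 without thalamus KO 3. With 1 library left out, 0 to 2 genes passed in the olfactory bulb, 1 to 7 in hippocampus, 0 to 1 in the thalamus, 14 to 140 between WT regions and 112 to 217 between regions with both genotypes. The replicate block changed no member's call. Same-numbered KO and WT libraries of a region correlated at -0.071 to 0.080 in their deviations, and 6 of 12 correlated best with their own number. This does not settle whether the numbers pair libraries, and same-numbered libraries of different regions were not compared. Depth limits what a 0 shows in cortex WT 3 and thalamus KO 3, and 3 libraries a group limit every genotype comparison.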
